A study of Mus musculus with 7 samples.

Results

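Primary neural stem cells from embryonic mouse brain (brain NSC) were set against mouse embryonic fibroblasts (MEF), gene by gene, over their RNA-seq libraries, which are 2 of the 7 in the series. A gene entered the comparison when it reached 2 RPKM in either library, the deposited unit, which counts reads per exon length and per sequencing depth. This kept 16253 of the 29686 genes that had a value. Every gene was compared as the log2 ratio of brain NSC over MEF after 1 RPKM had been added to both levels, so a positive value means a higher level in brain NSC. The brain NSC came from BDF2 embryos, given as E12.5 in one label and E13.5 in another, and were grown in DMEM/F12 with B27, N2, bFGF and EGF on poly-D-lysine and laminin. The MEF were of strain A12 with the genotype Mbd3 flox/-, and the number of embryos behind either culture is not given in the sources used here. Strain, Mbd3 genotype, medium and cell type therefore differ together and cannot be told apart. Each population had 1 library, so no difference has a replicate check or a test, and folds describe these 2 libraries.

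Neural stem cells of the embryonic brain are elongated progenitors, the radial glia, that divide near the ventricle and give rise first to neurons and later to glia. In culture they are kept dividing by FGF and EGF and express transcription factors of the Sox, Olig and Notch effector families together with many genes that mature astrocytes also use. Fibroblasts are connective tissue cells that secrete collagen and other matrix proteins, pull on that matrix through actin and myosin fibres and respond to serum and inflammatory signals.

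The inferred depth was about 27000000 reads for brain NSC and 45000000 for MEF, and 19000000 to 58000000 over all 7 libraries. Defining markers of both cell types were found in the library labelled for them. The 10 neural stem cell markers summed to 5107 RPKM in brain NSC and 69.4 in MEF, and 9 of them reached 2 RPKM in brain NSC, the exception being Prom1. In MEF 6 of the 10 reached 2 RPKM. Most of the brain NSC sum came from Fabp7 (2394 RPKM) and Slc1a3 (1936 RPKM). The 10 fibroblast markers summed to 22.4 RPKM in brain NSC, where Twist1 alone reached 2 RPKM, against 27188 in MEF. The MEF library also held transcripts of other cells: 6 microglia and leukocyte markers summed to 2744 RPKM (3.44 in brain NSC, with Ptprc and Tyrobp at 0), 5 muscle markers to 221 RPKM (0.550 in brain NSC, with Myod1 at 0) and 3 epithelial markers to 16.9 RPKM (0.265 in brain NSC). Neuron markers summed to 29.2 RPKM in brain NSC and 112 in MEF, where Stmn2 made up 97.6 of it, whereas Dcx stood at 10.9 in brain NSC and 1.32 in MEF. Astrocyte markers summed to 42.0 and 23.9 RPKM, and oligodendrocyte markers to 3.26 and 17.9. In such bulk libraries fewer cells of a type and less RNA per cell cannot be told apart.

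Of the 16253 genes, 1177 (7.24%) were 4-fold or more higher in brain NSC and 2161 (13.3%) were 4-fold or more lower. At 2-fold, 3530 genes (21.7%) were higher and 3613 (22.2%) lower, and 9110 (56.1%) stayed within 2-fold. Counts within a gene group are over its members at 2 RPKM or more. A member that reached this limit only in the library where it was high had to differ, so these counts describe the detected members. Genes at 2 RPKM or more in one library only numbered 1314 in brain NSC and 2275 in MEF. The median log2 ratio over all genes was 0.14. This balance depended on scaling. With each library set to the same sum over genes, 1587 genes were 4-fold higher and 1909 lower, so that 45.4% of those past 4-fold were higher instead of 35.3%, and the median of all genes moved to 0.48. Median-of-ratios scaling placed that median at −0.02. Nearest to the 2 RPKM limit, Drd4, Hykk and Prdm11 lay just inside it through their MEF level (2.0004, 2.0048 and 2.0049 RPKM), and Mylk4, Nell1 and Nxpe5 just outside (1.996, 1.996 and 1.999 RPKM, with none in brain NSC).

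**Figure D1:**
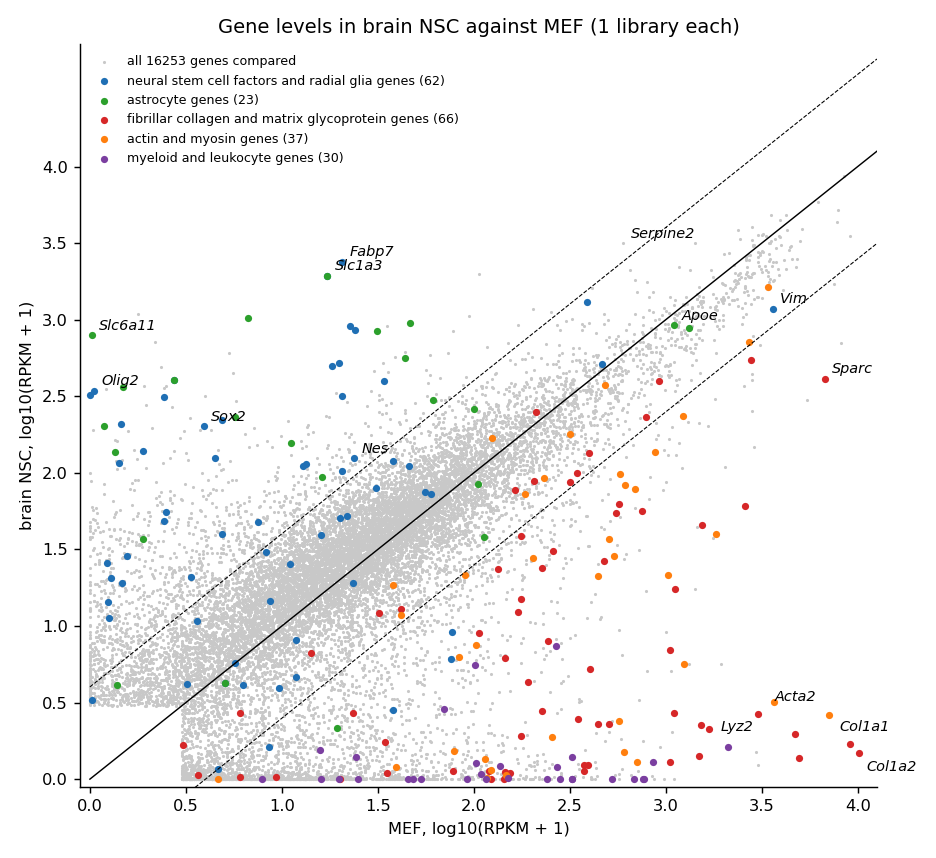
Level of each compared gene in MEF (horizontal, log10 of RPKM plus 1) and in brain NSC (vertical, same scale), with the line of equal levels and dashed lines at 4-fold after adding 1 RPKM, for all 16253 genes (grey) and members of 5 groups (coloured). Astrocyte genes such as Slc6a11 (792 against 0.0272 RPKM) lie at the upper left, and collagen genes such as Col1a2 (0.482 against 10202 RPKM) at the lower right.

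Among protein-coding genes, those highest in brain NSC relative to MEF encoded transporters, matrix proteoglycans and other products known from glia. The leading gene was Slc6a11, which encodes a glial GABA transporter, at 792 RPKM in brain NSC and 0.0272 in MEF (log2 9.59). The RPKM ratio was 29118, with a 95% exact interval of 9189 to 130224 from recovered reads. Such intervals cover counting error only. The bHLH factor gene Olig2 stood at 342 against 0.0508 RPKM (log2 8.35), and Olig1, beside it on chromosome 16, at 320 RPKM in brain NSC and listed at 0 in MEF. Brevican and neurocan, the proteoglycans of brain matrix, followed: Bcan at 711 against 1.20 RPKM, a ratio of 595 (510 to 694), and Ncan at 369 against 1.48, a ratio of 249 (227 to 273). The protease inhibitor gene Timp4 stood at 351 against 0.218 RPKM, the fatty acid activating enzyme gene Acsbg1 at 364 against 0.493, and the adhesion gene Hepacam at 200 against 0.187. Mlc1, a membrane protein gene of astrocytes, stood at 404 against 1.73 RPKM, a ratio of 233 (204 to 267). The mitochondrial glutamate carrier gene Slc25a18 stood at 354 against 1.44 RPKM. Mmd2 and Scrg1 were also among the 15 highest, at 191 against 0.0336 and 209 against 0.444 RPKM.

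The series also holds neural stem cells made from fibroblasts with the reprogramming factors Oct4, Sox2, Klf4 and Myc (OSKM NSC), in 1 library positive and 1 negative for a Nanog-Tomato reporter, and the levels of these genes there can be set beside those of brain NSC. Slc6a11 stood at 40.4 RPKM in the Tomato-positive and 323 in the Tomato-negative OSKM NSC, Bcan at 65.8 and 496, and Hepacam at 6.66 and 57.9. Scrg1 stood at 19.2 and 11.4 RPKM. All 4 were higher in brain NSC than in either. Olig1 was lower in brain NSC (320 RPKM) than in either OSKM NSC library (372 and 730), and so was Fabp7 (2394 against 6511 and 8761). The rest of the series is cells on day 6 of the OSKM conversion to neural stem cells, induced pluripotent stem cells (iPSC) and embryonic stem cells (ESC). In day 6 cells, iPSC and ESC, Slc6a11, Bcan and Hepacam were at 0.708 RPKM or less.

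The genes lowest in brain NSC were those of the collagen matrix, of contractile fibres and of leukocytes. Type I collagen was carried by Col1a2 at 0.482 RPKM in brain NSC and 10202 in MEF (log2 −12.75), a ratio of 21166 (16518 to 26324), and by Col1a1 at 0.700 against 9085 (log2 −12.38). Type III collagen, Col3a1, stood at 0.366 against 4949 RPKM. The matrix proteins Bgn, Postn and Spp1 stood at 0.965 against 4730, 0.417 against 1492 and 1.68 against 3035 RPKM, and the collagen crosslinking enzyme Lox at 0.300 against 1047. Smooth muscle actin, Acta2, stood at 1.61 against 7058 RPKM, a ratio of 4396 (3812 to 6201), and Tagln, which binds actin, at 2.17 against 3649. Lysozyme, Lyz2, a macrophage product, stood at 0.616 against 2098 RPKM. Crip1 had no recovered read in brain NSC against 1105 RPKM in MEF, which makes it at least 4426-fold lower when 3 reads are taken as the limit per library, and the acute phase gene Saa3 at 972 RPKM was at least 3918-fold lower. The growth factor gene Igf2 stood at 0.244 against 3008 RPKM and its neighbour on chromosome 7, the noncoding H19, at 1.58 against 18104. S100a6 and Crabp1 completed the 15 lowest, at 0.508 against 2941 and 0.0462 against 848 RPKM.

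A few gene groups held a large part of the MEF reads. Fibrillar collagen genes with their processing enzymes held 7.05% of the summed exon reads in MEF and 0.183% in brain NSC. Matrix glycoprotein genes held 3.62% against 0.277%, and actin, myosin and serum response factor target genes 2.66% against 0.442%. In the other direction, radial glia genes held 1.62% in brain NSC and 0.427% in MEF, and astrocyte genes 1.45% and 0.157%. Among the most abundant transcripts of brain NSC were Ptn, a secreted growth factor of glia (3872 against 2382 RPKM), the protease inhibitor gene Serpine2 (3161 against 601) and the fatty acid binding protein gene Fabp7 (2394 against 19.6).

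Transcription factors of neural stem cells were higher in brain NSC in most cases. Of 32 compared, 23 were 2-fold or more higher and 5 lower, with a median log2 ratio of 2.26 beside 0.14 over all genes. Of the 32, 12 had reached 2 RPKM in brain NSC alone and 2 in MEF alone, and over all 34 listed the median was 1.78. Sox2, which holds the neural progenitor state, stood at 201 against 2.92 RPKM (log2 5.69). Its partner in neural enhancers, the winged helix factor Rfx4, stood at 115 against 0.418, and Sox8 and Sox21 at 138 against 0.891 and 24.7 against 0.228. The nuclear factor I genes, which control the switch from making neurons to making glia, were 2-fold or more higher in 3 of 4: Nfia at 29.4 against 7.28, Nfib at 78.1 against 29.8 and Nfix at 51.6 against 20.8 RPKM, whereas Nfic stood at 15.9 against 32.6. Among Sox genes at 2 RPKM or more 10 of 13 were higher and 1, Sox10, was lower (median 3.03, or 1.58 over the 18 with any read). Sox10, a factor of neural crest and oligodendrocyte precursors, stood at 0.628 against 7.54 RPKM. The other members lower in brain NSC were Id4 (1.81 against 37.1), Hmga2 (8.11 against 75.8) and the Hedgehog effectors Gli2 and Gli3 (2.92 against 8.61 and 3.62 against 10.8).

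Structural and surface genes of radial glia gave the same picture, with 21 of 30 higher, 3 lower and a median of 2.73. Fabp7, which carries fatty acids in radial glia, stood at 2394 against 19.6 RPKM, a ratio of 122 (115 to 131). Slc1a3, the glutamate transporter GLAST, stood at 1936 against 16.2, a ratio of 119 (115 to 123). The receptor phosphatase gene Ptprz1 stood at 906 against 21.7 RPKM, the proteoglycan gene Cspg5 at 311 against 1.44 and the metal-binding Mt3 at 494 against 17.2. Nes, the nestin filament gene, differed less, at 123 against 22.8 RPKM, a ratio of 5.39 (5.27 to 5.58). Vim, the filament gene that radial glia and fibroblasts share, was higher in MEF, at 1176 against 3595 RPKM. Prom1 and Pdpn were also lower in brain NSC, at 0.156 against 3.66 and 5.05 against 74.6.

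Astrocyte genes had the highest median of the 69 groups described (3.82), with 17 of 23 higher and 2 lower. Of the 23, 7 had reached 2 RPKM in brain NSC alone and 1 in MEF alone, and over all 25 listed the median was 3.69. Besides Slc6a11, Slc1a3 and Mlc1 the higher ones included the sodium pump beta subunit Atp1b2 at 843 against 30.2 RPKM, the secreted Sparcl1 at 947 against 45.3, S100b at 35.8 against 0.883 and the aldolase gene Aldoc at 563 against 42.8. Gfap, the filament gene of mature astrocytes, which was not picked by the naming rule and was chosen after its values were seen, stood at 3.26 against 4.05 RPKM, and the water channel gene Aqp4, chosen likewise, at 1.802 against 0.547, below the 2 RPKM limit in both. Aldh1l1, an enzyme of folate metabolism used as an astrocyte marker, was lower in brain NSC, at 1.14 against 18.4 RPKM, as was the clusterin gene Clu, at 37.1 against 112. Apoe and Cst3, among the most abundant transcripts of the list, lay within 2-fold at 916 against 1107 and 885 against 1314 RPKM.

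Genes of the oligodendrocyte lineage split. Of 17 compared, 7 were higher and 10 lower (median −1.69, or −0.81 over the 23 with any read). The higher members were led by Olig1 and Olig2, by Gpr37l1 at 99 RPKM and listed at 0 in MEF, and by Bcas1 at 118 against 0.374. The proteoglycan gene Cspg4 stood at 42.5 against 15.7. Those lower included the precursor receptor gene Pdgfra (5.36 against 80.8 RPKM), which fibroblasts also express, the myelin regulator gene Myrf (1.39 against 24.3) and the tight junction gene Cldn11 (0.881 against 13.1).

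Of 23 neuronal genes, 11 of them at 2 RPKM in brain NSC alone and 6 in MEF alone, 14 were higher and 6 lower in brain NSC (median 1.63). The microtubule genes Map2 and Tubb3 stood at 203 against 12.7 and 15.8 against 11.4 RPKM, and Gap43, of growth cones, at 213 against 64.5. Myt1, Calb2 and Elavl3 stood at 36.3 against 0.439, 12.48 against 0.0776 and 22.4 against 1.59. Over all 35 listed neuronal genes, including those below 2 RPKM, the median was 0.44. Among the lower genes, Th, the first enzyme of dopamine synthesis, had no read in brain NSC and 170 RPKM in MEF. Stmn2 had none against 97.6, and the neurofilament gene Nefl none against 2.30.

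Receptors and channels of nerve cells were detected in part. Of 26 glutamate receptor genes 15 reached 2 RPKM, 9 of them in brain NSC alone and 2 in MEF alone, and 9 were higher and 3 lower. The median was 1.97 over these 15 and 0.69 over all 26. Grm5, a metabotropic receptor, stood at 87.1 against 0.0174 RPKM, the AMPA subunits Gria4 and Gria2 at 86.0 against 1.22 and 88.8 against 4.77, and Grm3 at 29.1 against 0.135. Gria3 was lower, at 22.1 against 53.4. The GABA receptor subunits Gabrg1 and Gabra2 stood at 47.9 against 0.0606 and 54.2 against 0.367, and 5 of the 8 such genes at 2 RPKM or more were higher with 3 lower, with a median of 1.46 over these and 0.08 over the 16 with any read. Of 38 potassium channel genes 19 were higher and 12 lower (median 1.09). Their leaders were Kcnd3 at 104 against 0.377 RPKM, the inward rectifier Kcnj16 at 56.0 against 0.0324, Kcna2 at 54.0 against 0.0853 and the channel-binding Kcnip3 at 294 against 4.77, while Kcne4 stood at 0.0298 against 31.9. Of 40 sodium and calcium channel genes 19 reached 2 RPKM, with 8 higher and 4 lower, and the median of 0.64 over these was −0.01 over all 40, with Cacng7, a partner of AMPA receptors, at 141 against 36.1 and Scn8a at 9.92 against 0.150. Over the 86 of 92 listed potassium channel genes that had any read the median was −0.01, so the median of 1.09 describes the detected ones.

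Adhesion genes of several families differed. Of 42 neural adhesion and guidance genes 28 were higher and 9 lower (median 1.88, or 1.66 over all 47). Of the 42, 15 had reached 2 RPKM in brain NSC alone and 5 in MEF alone. Astn1, which guides young neurons along radial glia, stood at 194 against 1.10 RPKM, the contactin gene Cntn1 at 133 against 2.16 and Ntm at 76.1 against 0.703. The repellents Slit2 and Slit3 were lower, at 0.542 against 111 and 0.0567 against 117. Among 13 cadherin genes 5 were higher and 5 lower. Cdh20, Cdh22, Cdh4 and Cdh13 stood at 71.4 against 0.183, 30.7 against 0.246, 39.0 against 0.772 and 184 against 13.6 RPKM. The mesenchymal Cdh11 stood at 10.3 against 292 and Cdh3 at 0.0819 against 111, and N-cadherin, Cdh2, differed little, at 71.6 against 58.9. Clustered protocadherins, which give neurons individual surface codes, were higher in 23 of 32 and 2-fold lower in none (median 1.69), 20 of the 32 having reached 2 RPKM in brain NSC alone, with Pcdhb9 at 17.8 against 0.0873, Pcdhb10 at 13.545 against 0.0548 and Pcdhgc3 at 311 against 73.3 RPKM. Exons shared by the gamma genes of that cluster cannot be assigned to one member. The adhesion receptor gene Adgrg1 stood at 604 against 4.30 RPKM, a ratio of 140 (127 to 152).

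Brain matrix genes did not move as a block. Of 23 proteoglycan, tenascin and link protein genes 7 were higher and 9 lower, and the median of −0.22 turned to 0.06 with equal sums. Bcan and Ncan were among the 15 highest genes, and Cspg5 and Ptprz1 were given with radial glia. The heparan sulphate carriers Gpc3 and Gpc4 were lower, at 0.787 against 762 and 20.0 against 182 RPKM, as was Sdc1 at 21.9 against 149.

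**Figure D2:**
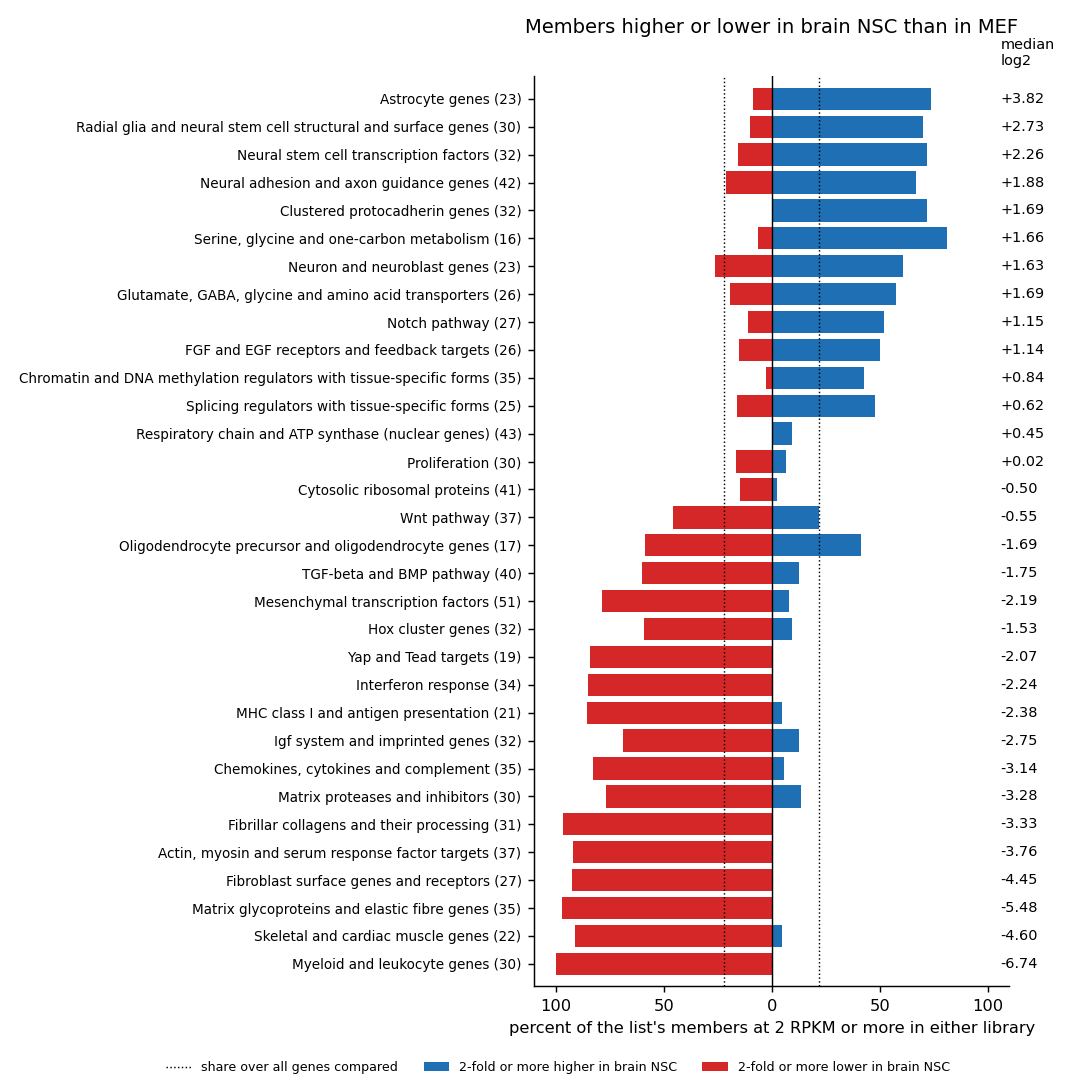
For 32 groups of genes, the percent of compared members that were 2-fold or more higher (blue, right) and lower (red, left) in brain NSC than in MEF, with the number compared in brackets and the median log2 ratio at the right and dotted lines at the shares over all genes (21.7% and 22.2%). Bars run from astrocyte genes, with 17 of 23 higher, to myeloid genes, with all 30 lower.

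Genes of the FGF and EGF receptor families and of their effectors differed in part. FGF and EGF receptors, effectors and feedback inhibitors were higher in 13 of 26 and lower in 4 (median 1.14). Fgfr3 stood at 230 against 4.68 RPKM while Fgfr1 differed little, at 126 against 114, and Fgfr2 was lower, at 12.8 against 38.1. The targets of ERK signalling were among the higher members: the Ets factor gene Etv4 at 291 against 20.96 RPKM, a ratio of 13.9 (13.8 to 15.1), the inhibitor Spry2 at 322 against 31.1 and the cyclin gene Ccnd1 at 416 against 66.0. Of the EGF receptor family, Erbb4 was higher (38.1 against 0.901) and Erbb2 and Erbb3 were lower (7.23 against 24.9 and 0.0677 against 2.53). The labels give bFGF and EGF in the medium of brain NSC and not in that of MEF, and the part of the medium in these values was not tested.

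Notch signalling keeps progenitors from differentiating. Of 27 Notch pathway genes 14 were higher and 3 lower. Their median of 1.15 was 0.48 with median-of-ratios scaling and 0.11 over all 31 listed genes. The effector gene Hes5 stood at 34.5 against 0.157 RPKM, the ligand gene Dll1 at 37.8 against 0.825, a ratio of 45.9 (38.9 to 56.8), and the feedback genes Nrarp and Lfng at 25.8 against 1.11 and 96.3 against 12.7. The receptor gene Notch1 was higher, at 80.1 against 13.2, and Notch2 stood at 11.2 against 16.2. Numbl, a Notch antagonist, and the noncanonical ligand gene Dlk1 were lower, at 29.3 against 80.8 and 0.0689 against 283 RPKM.

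Hedgehog, Wnt and BMP genes behaved otherwise. In the Hedgehog list 2 of 11 genes were higher and 4 lower (median −0.57). The 2 were the receptor Ptch1 (55.2 against 4.88 RPKM) and the antagonist Hhip (5.84 against 0.858), and Shh itself, chosen after its values were seen, had no read in brain NSC and 0.0896 RPKM in MEF. Among 37 Wnt genes 8 were higher and 17 lower (median −0.55), beside 21.7% higher and 22.2% lower over all genes. Of these 37, 13 had reached 2 RPKM in MEF alone and 6 in brain NSC alone. The ligands Wnt7a and Wnt7b stood at 35.4 against 0.420 and 14.6 against 0.412 RPKM and the receptors Fzd9 and Fzd3 at 77.3 against 0.611 and 32.7 against 0.797. Secreted inhibitors were the lowest members: Sfrp1 at 0.0593 against 173 RPKM, Dkk3 at 0.0772 against 137, and Dkk2 with no read against 57.8. Of 40 TGF-beta and BMP genes 5 were higher and 24 lower (median −1.75). Of these 40, 15 had reached the 2 RPKM limit in MEF alone and 3 in brain NSC alone. The lower ones included Bmp4 (0.257 against 211 RPKM), Tgfb3 (13.3 against 406), the latent binding protein gene Ltbp2 (0.0165 against 96.3) and the target Tgfbi (2.20 against 354). Bmp7 was higher, at 33.4 against 1.92, as were the receptor Bmpr2 and the transducer Smad5, at 74.2 against 12.1 and 108 against 18.4.

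Genes of position in the body axis were mixed. Of 28 forebrain factors 10 reached 2 RPKM, with 4 higher and 3 lower. Otx1 and Otx2 stood at 5.76 against 0.518 and 5.07 against 0.969 RPKM, Nr2f1 at 73.5 against 23.3 and Lhx2 at 9.78 against 2.60, and Emx2 at 9.72 against 11.2. Their median of 0.33 turned to −0.34 with median-of-ratios scaling and to −0.18 over the 27 with any read. Of 13 factors of midbrain, hindbrain and spinal cord 4 were higher and 3 lower. Dbx2, a spinal cord and hindbrain factor, stood at 64.0 against 0.321 RPKM, En2 at 3.51 against 0.110, Pax3 at 9.21 against 3.38 and Irx2 at 27.3 against 17.8. Hox genes, which are silent in forebrain and midbrain, were detected in brain NSC: of 32 compared, 3 were higher and 19 lower (median −1.53, or −0.96 over all 39), and 18 of the 32 had reached the limit in MEF alone. Among the 3 were Hoxa4 (10.1 against 2.93) and Hoxd10 (12.1 against 4.65 RPKM), and Hoxa5 and Hoxb9 stood at 14.9 against 10.5 and 15.1 against 8.30. Lower members were led by Hoxa10, Hoxb7, Hoxb2 and Hoxc8, the last at 0.536 against 14.2.

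Transporters and enzymes of amino acid metabolism were higher as groups. Of 26 transporter genes 15 were higher and 5 lower (median 1.69, or 1.66 over all 27). Of the 26, 7 had reached 2 RPKM in brain NSC alone and 3 in MEF alone. Slc38a3, which exports glutamine from astrocytes, stood at 274 against 0.963 RPKM. The lactate exporter gene Slc16a3 was lower, at 0.150 against 231, and the glucose carrier gene Slc2a1 stood at 161 against 420. Of 16 serine, glycine and folate genes 13 were higher and 1, Aldh1l1, lower (median 1.66). The glycine cleavage enzyme gene Gldc stood at 69.7 against 2.87 RPKM, a ratio of 24.3 (24.1 to 29.5), the mitochondrial Aldh1l2 at 200 against 27.2, and Psat1 and Shmt2 of serine synthesis and use at 445 against 129 and 308 against 96.8. Respiratory chain and ATP synthase genes were little apart: 4 of 43 were higher and none was 2-fold lower (median 0.45), with Ndufs1 at 182 against 73.0, Sdha at 368 against 160 and Cyc1 at 414 against 198. Of 17 glycolysis genes 3 were higher and 1 lower, and their median of 0.14, equal to that of all genes, was −0.03 with median-of-ratios scaling. The 3 were Aldoc, Gpi1 (2096 against 649) and Pfkm (265 against 89.5), and the platelet form Pfkp stood at 48.2 against 129. Of 23 cholesterol genes 5 were higher and 3 lower (median 0.46), beside 21.7% higher and 22.2% lower over all genes. The higher ones included Hmgcs1 at 568 against 201. Antioxidant and glutathione genes were higher in 7 of 26 and lower in 6, beside the same shares over all genes. Their median of 0.12 was −0.04 with median-of-ratios scaling. The glutathione transferase gene Gstm1 stood at 844 against 77.0 RPKM and Gclc, the limiting enzyme of glutathione synthesis, at 66.5 against 12.3, whereas the peroxidase genes Gpx3 and Gpx8 stood at 0.0937 against 283 and 24.6 against 300.4.

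Growth related genes were close between the cultures. Of 30 proliferation genes 2, Ccnd1 and Ccnd2 (324 against 109 RPKM), were higher and 5 lower, and the median of 0.02 was −0.14 with median-of-ratios scaling. Ccnd3 stood at 44.4 against 320. Among 41 ribosomal protein genes 1 was higher and 6 lower (median −0.50). The higher one was Rpl30, at 583 against 57.8 RPKM, and the lower ones included Rps18 at 402 against 1134. Rpl30 varied over the series, with 218 RPKM on day 6, 469 and 271 in the OSKM NSC, 91.9 in iPSC and 713 in ESC. Reads of ribosomal protein genes can be shared with their many processed copies. Of 21 Cdk inhibitors and p53 targets 3 were higher and 6 lower (median −0.48), with Cdkn2b at 9.98 against 109 and Gadd45b at 5.02 against 101.

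Chromatin regulators were higher in 15 of 35 and lower in 1 (median 0.84). Dpf3 and Dpf1, subunits of the BAF remodeller of neural cells, stood at 43.0 against 0.101 and 40.1 against 3.67 RPKM, the demethylating enzyme Tet1 at 15.2 against 1.54 and the helicase Chd7 at 44.3 against 2.25. The 1 lower member was Chd3, at 4.81 against 64.9. Mbd3, of the NuRD complex, stood at 170 RPKM in brain NSC against 65.3 in MEF, whose label names an Mbd3 flox/- genotype, a ratio of 2.60 (2.60 to 2.79). It stood at 136 RPKM on day 6, 271 and 206 in the OSKM NSC, 68.4 in iPSC, which carry the same label as MEF, and 73.6 in ESC. Of 25 splicing regulators 12 were higher and 4 lower (median 0.62). Qk stood at 394 against 33.1 RPKM, Msi2 at 113 against 12.3 and Nova1 at 45.7 against 5.62, and Celf4 and Esrp2 were lower. Of 350 zinc finger genes named Zfp 92 were higher and 27 lower (median 0.55), beside 21.7% higher and 22.2% lower over all genes.

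Most compared genes of the fibroblast matrix and surface were lower, and the members 2-fold higher were laminins, integrins, proteases or their inhibitors. None of 31 fibrillar collagen and collagen processing genes was 2-fold higher and 30 were lower (median −3.33). Other collagens were lower in 23 of 24 (median −3.98), with Col6a1 at 1.04 against 1080 RPKM, Col12a1 at 2.28 against 724 and the basement membrane Col4a1 at 93.3 against 822. Matrix glycoproteins were lower in 34 of 35 (median −5.48), with Mgp at 1.26 against 1524 and Sparc at 410 against 6760. Laminins and integrins were lower in 17 of 26 and higher in 3 (median −2.23). The 3 were Itgb8, a receptor that activates TGF-beta, at 79.6 against 2.43 RPKM, Itga6 at 104 against 21.5 and Lama5 at 82.4 against 40.5. Proteases and their inhibitors were lower in 23 of 30 and higher in 4 (median −3.28). Mmp2 and Mmp14 stood at 0.169 against 592 and 1.40 against 524, whereas Mmp15 stood at 188 against 2.76. Surface and calcium-binding genes of fibroblasts were lower in 25 of 27 (median −4.45), including Thy1 at 0.833 against 583 RPKM, a ratio of 700 (512 to 984), Pdgfrb at 0.0383 against 150 and Anxa1 at 0.619 against 934. Many members had reached the 2 RPKM limit in MEF alone. They were 15 of the 31 fibrillar, 16 of the 24 other collagen and 19 of the 35 glycoprotein genes. Among laminins and integrins they were 12 of 26, among proteases and inhibitors 13 of 30 and among surface genes 14 of 27.

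Transcription factors of mesenchyme were lower in 40 of 51 and higher in 4 (median −2.19, or −1.96 over all 57). Of the 51, 32 had reached the limit in MEF alone. Prrx1 stood at 0.752 against 111 RPKM, and the repressors Snai1 and Snai2 at 0.0457 against 52.7 and at no read against 42.9. Zeb1, a repressor named for its part in mesenchymal change, went the other way, at 318 against 19.5 RPKM, a ratio of 16.3 (15.4 to 16.3), and stood at 98.9 and 255 in the OSKM NSC. Sox9, a factor of cartilage and of glia, and Tcf4 were also higher, at 38.8 against 3.87 and 179 against 21.8. Imprinted and Igf genes were lower in 22 of 32 and higher in 4 (median −2.75, or −2.23 over all 34). Of the 32, 14 had reached the limit in MEF alone. Besides H19 and Igf2 the lower ones included Meg3 (0.0310 against 369) and Igfbp7 (4.66 against 1945), and the higher ones Nnat (307 against 73.1) and Igfbp5 (224 against 87.2).

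Actin, myosin and tropomyosin genes, many of which are targets of serum response factor, were lower in 34 of 37 with none 2-fold higher (median −3.76). Of the 37, 12 had reached the 2 RPKM limit in MEF alone. The muscle markers (221 RPKM in MEF against 0.550) moved with this group, and Acta1, one of both, made up 122 of that sum; their part in the group was not tested. Actg2, Cnn1, Des and Tpm2 stood at 0.297 against 703, 0.0622 against 146, 0.0245 against 117 and 1.38 against 572 RPKM. The cytoplasmic Actg1 differed least among the actins named, at 1638 against 3390. Promoters were taken from RefSeq (GRCm38.p6), 250 bases before to 50 after the start, and searched on both strands. The CArG box, the element that serum response factor binds, was found in 10 of the 32 members with a promoter (31.3%). Among 27025 genes with a promoter the share was 1.81%. A gene counted when any of its start windows held the element. The window of Acta1 (0.153 against 122 RPKM) and those of Myl9 (4.66 against 1240) and Cnn2 (20.7 against 1026), the last 2 chosen after values and matches were seen, are printed, since they show the element in genes far lower in brain NSC, with the CArG box in capitals, whose first base lies at −73, −161 and −56 from the start, the start base being +1.

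Acta1 (chr8:123894726-123895025, minus strand): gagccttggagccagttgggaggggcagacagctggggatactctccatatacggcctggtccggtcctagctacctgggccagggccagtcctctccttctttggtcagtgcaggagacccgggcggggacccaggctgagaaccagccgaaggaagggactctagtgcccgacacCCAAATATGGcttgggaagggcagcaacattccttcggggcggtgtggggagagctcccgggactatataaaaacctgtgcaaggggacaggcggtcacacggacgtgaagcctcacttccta
Myl9 (chr2:156775214-156775513, plus strand): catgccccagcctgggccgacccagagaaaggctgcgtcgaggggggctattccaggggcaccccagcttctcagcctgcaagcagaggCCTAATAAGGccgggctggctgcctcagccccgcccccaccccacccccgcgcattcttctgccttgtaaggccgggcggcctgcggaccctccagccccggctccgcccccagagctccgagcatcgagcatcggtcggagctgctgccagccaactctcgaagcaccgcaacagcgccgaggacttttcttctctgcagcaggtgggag
Cnn2 (chr10:79988350-79988649, plus strand): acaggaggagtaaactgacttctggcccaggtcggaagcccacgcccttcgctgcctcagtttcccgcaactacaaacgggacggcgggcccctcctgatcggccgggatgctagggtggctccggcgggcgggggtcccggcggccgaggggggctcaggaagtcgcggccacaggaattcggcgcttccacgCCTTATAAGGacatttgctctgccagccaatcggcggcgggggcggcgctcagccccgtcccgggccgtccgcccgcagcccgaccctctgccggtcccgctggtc

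Targets of Yap and Tead, which respond to cell tension, were lower in 16 of 19 with none 2-fold higher (median −2.07). Of the 19, 5 had reached the 2 RPKM limit in MEF alone. Ankrd1 had no read against 109 RPKM, Ccn2 stood at 0.561 against 380 and Ccn1 at 8.14 against 998. The genes of the factors themselves were nearer to each other: Tead1 stood at 53.5 against 44.9 and Tead2 at 36.9 against 75.1. The letters GGAATG, a core bound by Tead factors, occurred in 12 of 15 listed genes with a promoter (80.0%). Among all genes with a promoter the share was 16.6%. The windows of Ankrd1 and Ccn1, picked after values and matches were seen, hold it in capitals, at −210 and −123 in Ankrd1 and at −103 on the other strand in Ccn1.

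Ankrd1 (chr19:36119795-36120094, minus strand): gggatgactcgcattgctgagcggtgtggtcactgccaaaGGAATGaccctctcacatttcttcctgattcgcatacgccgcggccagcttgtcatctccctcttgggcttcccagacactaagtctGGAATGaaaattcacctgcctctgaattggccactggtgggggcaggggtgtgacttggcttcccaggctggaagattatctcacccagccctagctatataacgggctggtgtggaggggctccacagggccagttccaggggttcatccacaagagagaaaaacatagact
Ccn1 (chr3:145649936-145650235, minus strand): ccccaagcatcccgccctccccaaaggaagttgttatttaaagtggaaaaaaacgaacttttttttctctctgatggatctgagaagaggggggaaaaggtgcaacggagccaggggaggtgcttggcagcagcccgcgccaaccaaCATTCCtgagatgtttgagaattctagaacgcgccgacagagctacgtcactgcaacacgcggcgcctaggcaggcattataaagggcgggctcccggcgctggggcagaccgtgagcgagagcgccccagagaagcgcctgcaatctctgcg

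Interferon response genes were lower in 29 of 34 with none 2-fold higher (median −2.24, or −1.79 over all 37). Of the 34, 15 had reached the 2 RPKM limit in MEF alone and 1 in brain NSC alone. Bst2, which tethers virus particles, stood at 5.49 against 593 RPKM, Isg15 at 2.20 against 91.6, Ifi204 at 0.379 against 55.1 and Xaf1 at 0.912 against 42.7. Ifi27 differed little, at 109 against 150. Of 21 antigen presentation genes, 6 of them at the limit in MEF alone, 18 were lower and 1, the chaperone gene Canx, higher (median −2.38). Their light chain B2m stood at 251 against 2822 RPKM and H2-Q7 at 4.75 against 176, although near-identical class I genes share reads. The core of the interferon response element is TTTC, any 2 bases and TTTC. It was found in 18 of 27 interferon genes with a promoter (66.7%) and in 3.99% of all genes with one. The windows of Bst2 and Isg15, picked after values and matches were seen, hold 2 and 3 overlapping matches on the other strand, in capitals, from −130 and −124 in Bst2 and from −78, −72 and −66 in Isg15.

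Bst2 (chr8:71537423-71537722, minus strand): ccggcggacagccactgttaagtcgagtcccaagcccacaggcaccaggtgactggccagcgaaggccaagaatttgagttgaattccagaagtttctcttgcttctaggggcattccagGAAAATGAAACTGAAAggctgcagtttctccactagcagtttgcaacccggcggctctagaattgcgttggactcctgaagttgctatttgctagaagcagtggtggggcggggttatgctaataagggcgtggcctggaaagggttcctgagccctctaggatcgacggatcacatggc
Isg15 (chr4:156200769-156201068, minus strand): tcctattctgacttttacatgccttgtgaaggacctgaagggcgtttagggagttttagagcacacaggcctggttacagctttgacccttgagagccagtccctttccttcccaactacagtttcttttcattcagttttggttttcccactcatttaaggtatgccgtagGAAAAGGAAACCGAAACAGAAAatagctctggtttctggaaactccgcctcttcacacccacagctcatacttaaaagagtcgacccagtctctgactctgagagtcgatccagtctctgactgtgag

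For 3 other elements the shares were nearer to those of all genes with a promoter. The AP-1 site TGANTCA was in 3 of 19 protease genes (15.8%) and 0 of 17 immediate early genes, against 8.97%. The E-box CAGCTG, read by Olig and proneural factors, was in 2 of 23 neural stem cell factor genes (8.70%) and 7 of 22 Notch genes (31.8%), against 18.3%. The Sox core ACAAAG was in 9 of the same 23 (39.1%) and 3 of 25 radial glia genes (12%), against 21.02%. A match describes letters in these windows and not binding, and the target lists hold genes known for these elements.

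Cytokine and complement genes were lower in 29 of 35 and higher in 2 (median −3.14, or −2.88 over all 38). Of the 35, 25 had reached the limit in MEF alone. The complement regulator Serping1 stood at 0.227 against 206 RPKM, the chemokine Cxcl12 at 0.219 against 198 and midkine, Mdk, at 1.01 against 434. Vegfa, the vessel growth factor, and Kitl were the higher ones, at 1169 against 203, a ratio of 5.75 (5.69 to 5.83), and 24.8 against 8.96. Immediate early and AP-1 genes were lower in 13 of 21 and higher in 1 (median −1.34). Junb and Ptgs2 stood at 2.03 against 40.0 and 0.0526 against 31.7, and Jun, the higher one, at 100 against 32.7. Hypoxia genes split, with 4 of 18 higher and 8 lower, and their median of 0.07 was −0.10 with median-of-ratios scaling. Car9 and Ndrg1 stood at 1.73 against 84.3 and 28.3 against 134 RPKM, and Pdk1 and Kdm3a at 112 against 45.2 and 110 against 40.5. Genes of the secretory pathway were lower in 12 of 29 and higher in 1 (median −0.79), and lysosomal genes in 14 of 26 and 1 (median −1.05).

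Groups of genes known from cells other than fibroblasts passed the 2 RPKM limit mostly through MEF. All 30 myeloid and leukocyte genes were lower in brain NSC, 28 of them having reached the limit in MEF alone (median −6.74), with S100a8, S100a9 and Lilrb4a at no read against 768, 761 and 683 RPKM. Of 22 sarcomere genes at 2 RPKM or more, 17 of them in MEF alone, 20 were lower and 1, Pax7, higher, and over all 28 the median was −3.25, with Myh8 at 0.216 against 140 and Mylpf at 2.78 against 153. Of 22 epithelial genes 13 reached 2 RPKM, all of them through their MEF level alone, and over all 22 the median was −1.89, with Krt19 at 0.0470 against 36.6. Of 20 endothelial and pericyte genes 11 reached 2 RPKM, 9 of them in MEF alone, and over all 20 the median was −1.36, with Anpep at 0.0801 against 32.2. The matrix, interferon, antigen presentation, cytokine and lysosomal groups include genes that macrophages also express. The summed leukocyte markers given above (2744 against 3.44 RPKM) moved with those groups, and their part in them was not tested. Cartilage, bone and fat genes were lower in 11 of 16 and higher in 4 (median −1.95, or −1.16 over the 23 with any read), with Col2a1 at 0.136 against 119 and Fabp4 at 0.296 against 121, and the higher ones included Sox5 and Sox6 at 19.9 against 1.48 and 33.3 against 0.847. Neural crest genes were lower in 7 of 13 and higher in 2, Pax3 and the endothelin receptor gene Ednrb (109 against 11.9), with a median of −1.40, or −0.50 over all 17 listed.

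Sex-linked genes set the libraries apart. The noncoding Xist, by which an X chromosome is silenced, was at 447 RPKM in the brain NSC library against 4.56 in the MEF library. The Y-linked Eif2s3y and Ddx3y had no read in brain NSC and 114 and 42.8 RPKM in MEF. The X-linked partners Eif2s3x and Ddx3x stood at 142 against 51.0 and 350 against 145. Sex-linked expression, strain and cell type cannot be told apart in this comparison.

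For 45 pairs of paralogs, the share of the pair's summed RPKM taken by one named member was compared, and RPKM is per length, so levels of different genes can be set side by side. The first member led in brain NSC only in 24 pairs, in MEF only in 3, and in 18 the leader was the same. The pairs were chosen with earlier results of these data known, so this split describes the chosen pairs and their order. Among metalloproteases Mmp15 took 99.9% of its pair with Mmp2 in brain NSC and 0.464% in MEF, and among their inhibitors Timp4 took 93.5% of its pair with Timp1 and 0.0490%. Fabp7 took 85.9% and 2.42% beside Fabp5, Sparcl1 69.8% and 0.666% beside Sparc, and Itgb8 75.1% and 0.982% beside Itgb5. The helicase pair turned from Chd3 in MEF to Chd7 in brain NSC, where Chd7 took 90.2% against 3.36%. Fgfr3 took 64.6% beside Fgfr1 against 3.94%. Notch1 took 87.7% beside Notch2 against 44.9%.

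The 3 pairs with the opposite turn were Ccnd2 with Ccnd1 (43.8% in brain NSC and 62.4% in MEF for Ccnd2), Gstm5 with Gstm1 (33.3% and 76.0% for Gstm5) and Tead2 with Tead1 (40.8% and 62.6% for Tead2). In other pairs one gene led in both cultures. Enzymes of glycolysis kept theirs, with Aldoc at 21.5% and 1.24% beside Aldoa, Ldhb at 8.70% and 6.19% beside Ldha and Eno2 at 16.2% and 7.22% beside Eno1. The splicing regulator Ptbp2 held 46.2% beside Ptbp1 in brain NSC and 14.5% in MEF. Creatine kinase was nearly all Ckb in both, at 1987 RPKM in brain NSC and 105 in MEF.

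**Figure D3:**
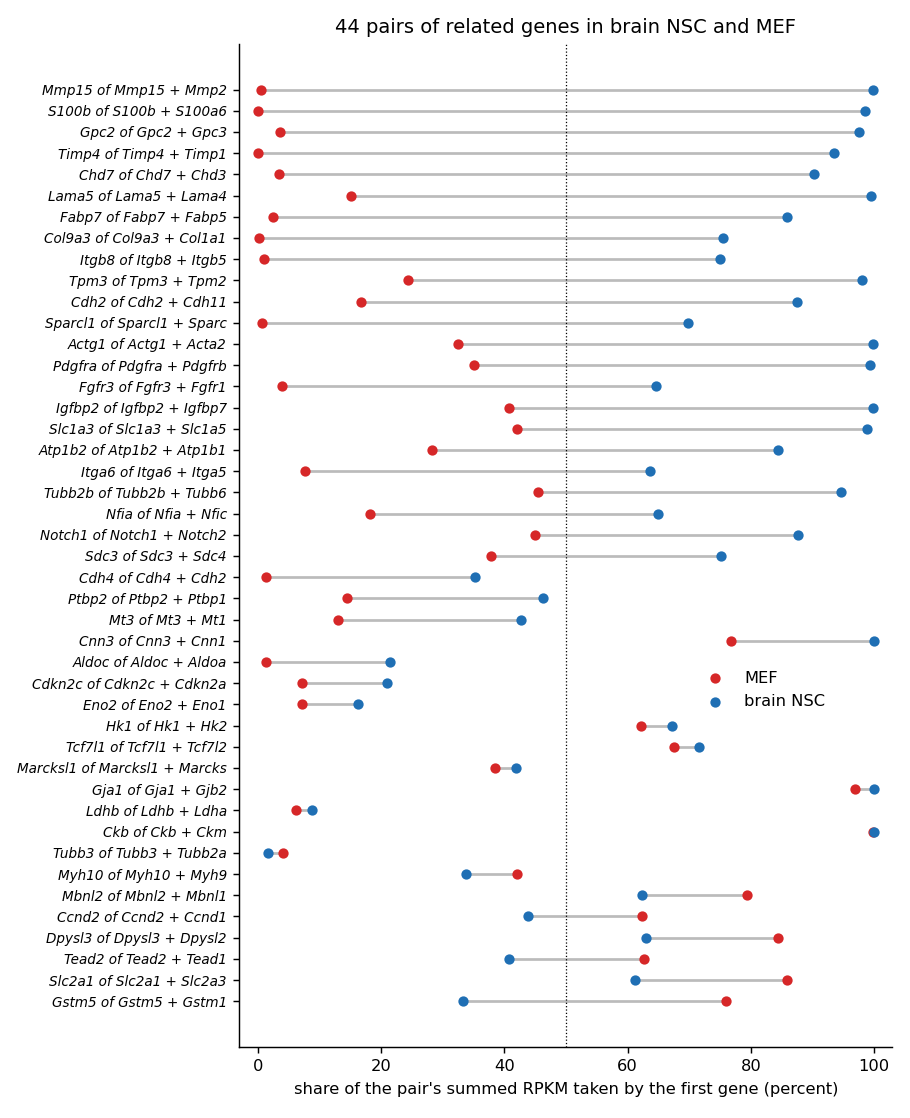
Share, in percent, of the summed RPKM taken by the first gene in each of 44 of the 45 pairs of related genes, in MEF (red) and brain NSC (blue), with pairs ordered by the difference and a dotted line at equal shares. Mmp15 and S100b lie at opposite ends in the libraries, whereas the Ckb and Gja1 shares nearly coincide.

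Because the deposited unit is the exon, use of exons within a gene could be described too. An exon's log2 ratio of brain NSC over MEF was set against that of the other exons of its gene, in protein-coding genes at 10 RPKM or more in both libraries. Of 69464 exons in 5802 genes, 398 (0.573%) lay 4-fold or more above their gene, in 191 genes, and 130 (0.187%) lay 4-fold or more below, in 70 genes. The 398 include all 7 compared exons of Mybph, which had no read in brain NSC and were called only through the 0.5 read added. The deviation moved with the place of the exon among the compared exons of its gene. Distance was counted over the bases of these exons only, from their 3′ end, so it is not the distance within a whole transcript. Exons within 1000 bases of that end had a median deviation of −0.09, and those 8000 bases or more from it 1.14. Of the latter 140 of 1096 (12.8%) lay 4-fold above, 40 of them in Macf1 alone. Another 15 (1.37%) lay 4-fold below, 14 of them in Tns1. By these medians, exons far from the 3′ end of the compared exons were relatively higher in brain NSC than in MEF. The part of read coverage along transcripts in the exon counts was not tested.

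Myo10, which encodes a motor of cell protrusions and was chosen after its values were seen, changed along its length. Its first 16 compared exons (1785 bases) had a mean of 3.78 RPKM in brain NSC and 38.7 in MEF, and all 16 lay 4-fold or more below the gene. The following 18 exons (3264 bases) had 144 RPKM in brain NSC and 53.5 in MEF. The mean of the first block was thus 2.63% of the second in brain NSC and 72.4% in MEF. The same share was 28.8% on day 6, 23.5% and 9.85% in the Tomato-positive and Tomato-negative OSKM NSC, 11.2% in iPSC and 30.01% in ESC. Brain NSC had the lowest share of the 7 libraries and MEF the highest.

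Tns1, an actin-linking protein gene whose internal exons were named by the rule, showed a like break. Its first 15 compared exons had a mean of 0.863 RPKM in brain NSC and 36.1 in MEF, and its later 16 had 12.2 and 37.5. The share was 7.10% in brain NSC, 96.4% in MEF and 143% to 237% in the other 5 libraries. The 2 named exons, at 73986263 to 73986375 and 73985875 to 73985935 on chromosome 1 (mm10), had no read in brain NSC and 36.4 and 56.1 RPKM in MEF.

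Vcan, the versican gene, chosen after its values were seen, differed between its long internal exons, which encode the parts that carry glycosaminoglycan chains. The exon of 2880 bases (chromosome 13, 89702918 to 89705797) stood at 28.2 RPKM in brain NSC and 5.32 in MEF, and the exon of 5217 bases (89688285 to 89693501) at 3.99 and 37.3. The shorter one led in brain NSC and the longer one in MEF. In the OSKM NSC the levels were 54.8 and 66.8 RPKM in the Tomato-positive and 55.4 and 21.8 in the Tomato-negative library. Fn1, the fibronectin gene, is plotted beside these genes for comparison and drifted along its length: it stood at 50.8 against 1146 RPKM at its first compared exon, where the deviation was 0.96, and at 42.3 against 3203 at its last, where it was −0.87.

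Single first exons were also named by the rule. One of 3 alternative first exons of Pmp22, a membrane protein gene, at 63131512 to 63131654 on chromosome 11 had 280 RPKM in MEF and 0.518 in brain NSC, whereas the gene stood at 382 and 51.3. All 3 lay 4-fold or more below the gene, the others at 3.94 and 252 RPKM in MEF and 0 and 4.31 in brain NSC. First exons of Rtkn and Dgkz stood at 0.149 against 8.24 and 0.0996 against 2.63 RPKM although both genes were higher in brain NSC, and an internal exon of Arhgef25 at no read against 47.7. Among the 6 exons furthest above their genes were first exons of Dst, Eef1a1, Paip1 and Mier1, at 5.52 against 0, 115 against 1.71, 21.3 against 0 and 4.96 against 0 RPKM. They rested on 34, 242, 23 and 30 reads in brain NSC and 0, 6, 0 and 0 in MEF.

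**Figure D4:**
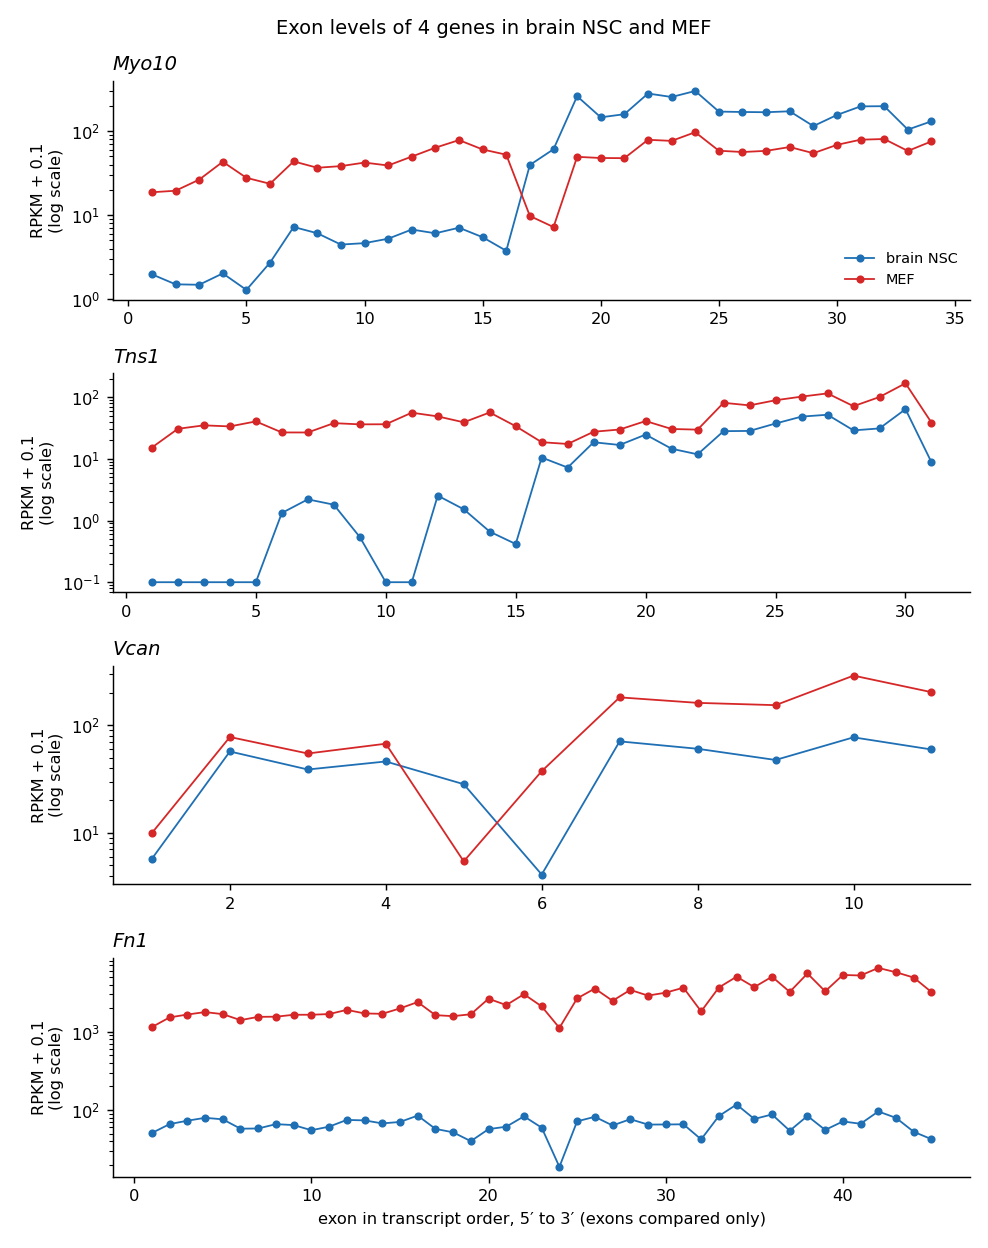
Level of each compared exon, in transcript order from 5′ to 3′, in brain NSC (blue) and MEF (red) for Myo10, Tns1, Vcan and Fn1, as RPKM plus 0.1 on a log axis. In Myo10 the blue line starts far below the red one and lies above it after exon 16, in Tns1 it starts far below and comes closer after exon 15, in Vcan the lines cross between 2 long exons, and in Fn1 the distance between the lines widens toward the 3′ end.

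Chromosome 11 stood apart in brain NSC, a pattern chosen for description after the values were seen. Over 7704 protein-coding genes at 5 RPKM or more in all 7 libraries, and with each comparison centred on its own median, the 657 genes of chromosome 11 had a median log2 ratio of 0.40 against MEF, which is 1.32-fold. Above 0 lay 72.5% of them, beside 47.9% of the 7047 genes on other chromosomes, whose medians ran from −0.25 (chromosome 7) to 0.14 (chromosome 13). All 11 stretches of 10 megabases with 20 or more genes had a median above 0, from 0.11 to 0.64. Set against the other libraries, the median of chromosome 11 was 0.46 for day 6, 0.38 for both OSKM NSC, 0.23 for iPSC and 0.40 for ESC. It was the highest of the 20 chromosomes in 5 of these 6 comparisons, which all share the brain NSC library, and against iPSC the X chromosome (0.49) and chromosome 12 (0.24) were higher.

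Other chromosomal clusters consisted of predicted gene models. On the X chromosome 107 of 750 compared genes (14.3%) were 4-fold higher in brain NSC, beside 7.24% over all genes, and 38 of them, 34 being Gm models, lay between 140 and 150 megabases. On chromosome 14, 162 of 643 (25.2%) were 4-fold lower, beside 13.3%, and 60 of these, 58 being Gm models, lay in the first 10 megabases. Where such models are near-identical copies, reads can be split among them.

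**Figure D5:**
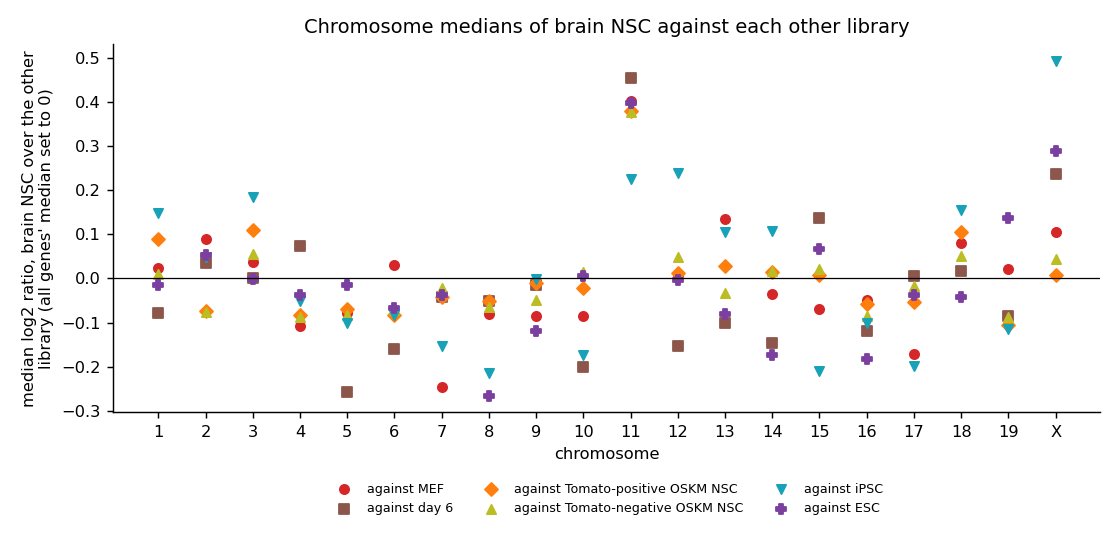
Median log2 ratio of brain NSC over each of the 6 other libraries for genes of each chromosome, centred on the median of all 7704 genes, with 1 mark per comparison. Marks for chromosome 11 lie between 0.23 and 0.46, and those of the other chromosomes between −0.27 and 0.49.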

How the data were processed

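RNA, prepared with the TruSeq RNA kit per the labels, was sequenced from 7 populations with 1 library each, of which brain NSC and MEF were compared here. The authors deposited RPKM per Ensembl exon, and the build mm10 and the tools TopHat2 2.0.10, Bowtie, bedtools and CASAVA 1.8.2 are listed in the submitters' processing notes, whose wording on their use was not used here. Of 279252 exons, 270168 (96.7%) were matched to GENCODE M21 genes (29686, of which 21474 were protein coding), and 9084 were left out. A gene's level was the length-weighted mean of its exons. Log2 ratios were taken after adding 1 RPKM, over genes at 2 RPKM or more in either library. Genes were counted at 4-fold and list members at 2-fold.

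Depth is not given in the files. It was inferred from the steps of the RPKM values, of which 96.3% to 96.5% were whole reads (within 0.01 read plus a relative 1e-05, under 5000 reads). Reads recovered in this way gave 95% Clopper-Pearson intervals of a ratio, printed where they contained the RPKM ratio. They came from exons that overlapped neither each other nor another gene, so the RPKM ratio can lie near an end of its interval. The limit for "at least" folds was 3 reads per library. Exons were compared in genes at 10 RPKM or more in both libraries with 4 or more exons, for exons of 30 bases and 20 reads or more, with 0.5 read added. The limit of 4 exons was applied before that of 20 reads, so some genes kept fewer, such as Slc23a1 with 1.

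The 54 lists (1420 members), 15 families and 45 pairs were chosen with earlier results of these data known. Named were the 15 highest and 15 lowest protein-coding genes without predicted models, and from each list up to 4 members furthest in its majority direction, up to 3 at 2-fold in the other direction and up to 3 of highest level. Also named were 9 reference genes (Sox2, Olig2, Nes, Fabp7, Col1a1, Thy1, Xist, Eif2s3y and Mbd3), both members of pairs, and the 6 exons furthest above and 6 furthest below their gene. The scripts, written in Python 3.11.15 with numpy 2.4.6, pandas 2.3.3 and scipy 1.17.1, were tested on simulated data. With 1 library per group no test was made. A few of the named items are left out and not analysed here.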

Additional observations from a re-analysis of the deposited data

How the results depend on the processing

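No paired analysis was possible because each group had 1 library. The number of genes 4-fold higher ranged from 653 to 1720 and that of genes 4-fold lower from 1310 to 2613 over the other settings, and the lowest values of both came from adding 4 RPKM in place of 1, which shrinks ratios of low genes by construction. The share higher among genes past 4-fold was 45.4% with equal sums over genes, against 35.3% as deposited, and 31.5% with median-of-ratios scaling. Lower calls outnumbered higher ones in all these settings. Of 69 list and family medians 45 were past 2-fold, and 44 of these kept their sign in all settings, while 18 fell under 2-fold in at least one. The potassium channel median was the exception, at −0.00726 without a filter on low values. Of 516 named genes 446 were past 2-fold, and 445 of these kept their sign; the exception was Tpm3, at a log2 ratio of 0.17 when its highest exon stood for the gene. The cause of these 2 reversals was not tested.

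Limits lie in the design. With 1 library per group, neither the spread between cultures nor that between preparations is known. Strain, sex-linked expression, medium, Mbd3 genotype and the leukocyte and muscle transcripts of MEF vary with cell type. Ratios of genes close to 0 in one library are imprecise, as the width of their intervals shows.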

Other observations

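Gene types can be set beside all compared genes, of which 7.24% were 4-fold higher and 13.3% 4-fold lower in brain NSC. Of 13596 protein-coding genes 970 (7.13%) were higher and 1965 (14.5%) lower, with a median log2 ratio of 0.15. Of 294 lincRNA genes 30 (10.2%) were higher and 35 (11.9%) lower, with a median of 0.37. Of 1777 processed pseudogenes 100 (5.63%) were higher and 62 (3.49%) lower, with a median of 0.02. Of 183 unprocessed pseudogenes 40 (21.9%) were higher and 53 (29.0%) lower, with a median of 0.38. Reads of a pseudogene can come from its parent gene.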
